A study of Homo sapiens with 12 samples.

Results

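SK-MEL-2 cells given dabrafenib with trametinib for 24 hours (DT) were compared with cells given the vehicle dimethyl sulfoxide (DMSO), on 3 Affymetrix arrays each, 6 of the 12 arrays in the series. All genes that could be named entered the comparison, 14582 of them with 1 probe set each. SK-MEL-2 is an established human melanoma line. The DT arm received dabrafenib at 100 nM, an inhibitor of RAF kinases, and trametinib at 10 nM, an inhibitor of MEK1 and MEK2, and the DMSO arm received neither. The other 6 arrays held cells given entinostat at 1 µM, an inhibitor of class I histone deacetylases, without (E) or with (DTE) the same doses of dabrafenib and trametinib, also for 24 hours. ERCC spike-in RNA was added to every sample before RNA was extracted. The titles describe the replicates as biological and the series text as technical, so that p-values cover no more than the variation among these arrays, which may be technical. In RNA from whole cultures, fewer cells expressing a gene and less RNA per cell cannot be told apart.

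In the RAF-MEK-ERK pathway, growth factor receptors load RAS proteins with GTP, RAS activates RAF kinases, RAF phosphorylates MEK, and MEK phosphorylates ERK. ERK in turn drives transcription of immediate-early and ETS factors, of MYC and D-type cyclins, and of its own inhibitors, the Sprouty proteins and the dual-specificity phosphatases. Mutations that keep this pathway active are common in melanoma, and RAF and MEK inhibitors are given together for tumours with activating mutations of RAF.

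The DT arrays were dimmer than the DMSO arrays over much of the transcriptome. Averaged as a geometric mean over the brighter genes, intensity was 139, 137 and 112 on the DMSO arrays and 108, 94.8 and 107 on the DT arrays, so that every DT array lay below every DMSO array (log2 difference -0.32, two-sided exact permutation p = 0.1, the smallest that 3 arrays against 3 allow). Differences are therefore given as the log2 difference DT minus DMSO in deposited values with the standard error of the fit, followed by the quantile value, which is the same difference after the arrays were brought to a common distribution. The median difference over all genes was -0.12 as deposited and -0.0022 after quantile normalization. A gene is said to have risen or fallen where limma's test, adjusted by Benjamini-Hochberg over all 14582 genes, called it in that direction in both scalings (adjusted p under 0.05), as it did for 679 higher genes (4.66%) and 2126 lower genes (14.6%). In deposited values alone 688 genes were higher (4.72%) and 3368 lower (23.1%), and in quantile-normalized values 2135 (14.6%) and 2188 (15%), which is 27.8% and 29.6% of all genes called in either direction. No gene was lower in deposited and higher in quantile-normalized values. The deposited arrays of the arms did not overlap for 1178 genes that were brighter in DT (8.08%) and 4338 that were dimmer (29.7%). Where 1 arm did not exceed the background estimated from the dimmest genes, only a lower bound of the fold is given.

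The line's labelled identity was checked against marker genes. All 11 measured melanocyte markers were above background, with summed intensities of 5239 to 6000.3 on the DMSO arrays and 4383 to 4923 on the DT arrays. Background was all that was seen for 6 of 8 keratinocyte, 4 of 6 fibroblast, 2 of 7 endothelial and 2 of 9 immune markers. The summed intensities of those lists ranged over 102 to 118 in DMSO and 115 to 119.8 in DT for keratinocytes, and over 67.2 to 81.5 and 71.1 to 73.2 for fibroblasts. They ranged over 121 to 153 in DMSO and 103 to 114 in DT for endothelium, and over 385 to 436 and 369 to 409.5 for immune cells. Above background in at least 1 arm were the keratinocyte or epithelial markers KRT14 and EPCAM, the fibroblast markers THY1 and FBLN1, the endothelial markers VWF, KDR, ERG, ESAM and CLDN5 and the immune markers CD4, CD8A, CD14, CD68, LYZ, CSF1R and NKG7. The others, among them KRT5, DSP, LUM, DCN, EMCN, TYROBP and CD2, were at background in both arms. KRT14 (0.70 ± 0.15, quantile 0.80) and CD14 (0.90 ± 0.15, quantile 1.01) were called higher and KDR (-0.95 ± 0.18, quantile -0.79) and LYZ (-0.93 ± 0.13, quantile -0.65) lower in both scalings, and the part of other cells in the results was not tested.

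**Figure D1:**
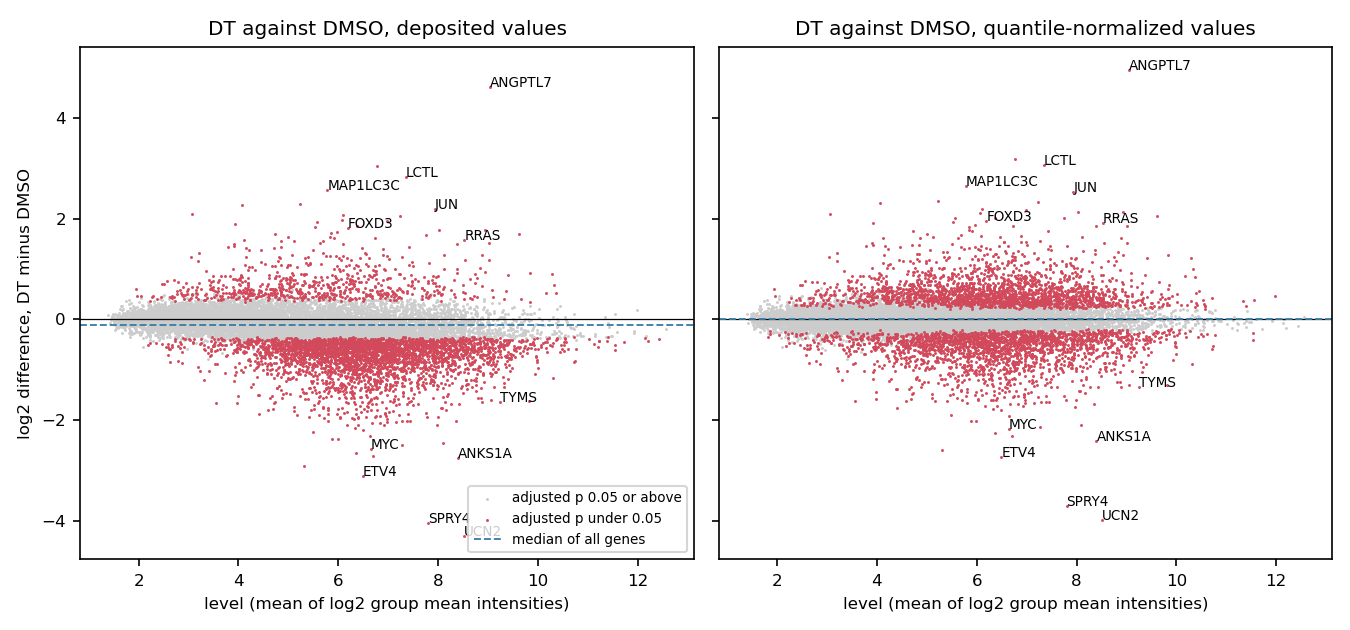
Log2 difference DT minus DMSO of each of 14582 genes (vertical axis) against its level, the mean of the log2 group mean intensities (horizontal axis), in deposited values on the left and quantile-normalized values on the right, with genes called by limma in red. The median of all genes, the dashed line, lies at -0.12 on the left and -0.0022 on the right, and the calls on the left are mostly below 0.

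Calls in the cascade itself depended on the scaling, and RRAS had its largest difference. RRAS, a RAS-related GTPase that can engage RAF, measured 216, 224 and 202 on the DMSO arrays and 638, 633 and 636 on the DT arrays, 2.97-fold higher (1.57 ± 0.13, quantile 1.92, limma adjusted p = 2.3e-09). The DT arrays lay close together and far above all DMSO arrays. SOS2, a guanine nucleotide exchange factor that loads RAS with GTP, rose as well (0.70 ± 0.16, quantile 0.96), while its paralog SOS1 was higher in quantile-normalized values only (0.33 ± 0.15, quantile 0.66). RASA2, a GTPase-activating protein that switches RAS off, fell from 141, 117 and 85.5 to 52.7, 44.9 and 53.4 (-1.16 ± 0.17, quantile -0.81), and the ranges of the arms did not overlap. Of the 16 measured cascade genes 2 were higher (12.5%) and 2 lower (12.5%) in both scalings (median 0.10, quantile 0.38), against 4.66% and 14.6% of all genes. There were 4 higher without DMSO replicate 1 and 1 lower without DMSO replicate 3 or DT replicate 1. In deposited values alone 2 were higher and 4 lower, and in quantile-normalized values 9 and 2, against 14.6% and 15% of all genes there. MAP2K1, which encodes MEK1, the target of trametinib, was the other gene called lower (-0.66 ± 0.14, quantile -0.29), a call lost without DMSO replicate 3 or DT replicate 1. MAP2K2, which encodes MEK2, was called in neither scaling (0.11 ± 0.18, quantile 0.33). MAPK3, which encodes ERK1, measured 145, 143 and 129.8 in DMSO and 148, 145 and 132 in DT, with overlapping ranges. Neither ARAF, a RAF kinase (-0.51 ± 0.14, quantile -0.15), nor HRAS (-0.51 ± 0.15, quantile -0.14) passed the test after quantile normalization.

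Most genes listed as feedback inhibitors of ERK fell, but over a wide range and with exceptions. The list is broad and also holds IER3 and phosphatases of p38 and JNK. Of its 16 measured genes 1 was higher (6.25%) and 10 lower (62.5%) in both scalings (median -0.84, quantile -0.59), against 4.66% and 14.6% of all genes. SPRY4, a Sprouty inhibitor of signalling from receptors to RAS, measured 976, 982 and 754 on the DMSO arrays and 58.1, 45.6 and 61.1 on the DT arrays, and its paralog SPRY2 measured 429.8, 427 and 368 and 152, 151 and 167. SPRY4 fell by a larger factor, 16.5-fold against 2.6-fold for SPRY2 (-1.38 ± 0.15, quantile -1.04), a difference between genes that was not tested. SPRY3, the third family member measured, was called higher in quantile-normalized values only (0.26 ± 0.16, quantile 0.42). Among the dual-specificity phosphatases, DUSP4, which acts in the nucleus, fell from 268, 302 and 233 to 43.6, 37.1 and 41.1. DUSP6, the cytoplasmic phosphatase of ERK, fell from 395, 436 and 382 to 184, 175 and 199.8. In both genes each DT array lay below each DMSO array. DUSP5, a nuclear phosphatase of ERK, was near background in DT, which gives a fall of at least 1.6-fold, and at least 1.56-fold after quantile normalization. Further falls were those of DUSP7 (-0.93 ± 0.16, quantile -0.62), DUSP9 (-0.74 ± 0.13, quantile -0.56) and DUSP10 (-1.09 ± 0.14, quantile -0.75), the last a phosphatase that prefers p38 and JNK over ERK. DUSP1 was called lower in deposited values only (-0.43 ± 0.15, quantile -0.16), DUSP2 was called in neither scaling (-0.28 ± 0.16, quantile -0.024) and DUSP16 was called higher in quantile-normalized values only (0.051 ± 0.18, quantile 0.41). DUSP8, a phosphatase of JNK and p38, went the other way, from 27.5, 22.2 and 21.7 to 39.9, 31.4 and 34 (0.56 ± 0.15, quantile 0.66), without overlap. IER3, an immediate-early gene that acts on ERK signalling and survival, fell (-1.20 ± 0.14, quantile -0.85), and RASAL1, a RAS GTPase-activating protein, fell by a call that was lost without DMSO replicate 1, DMSO replicate 3 or DT replicate 3.

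**Figure D2:**
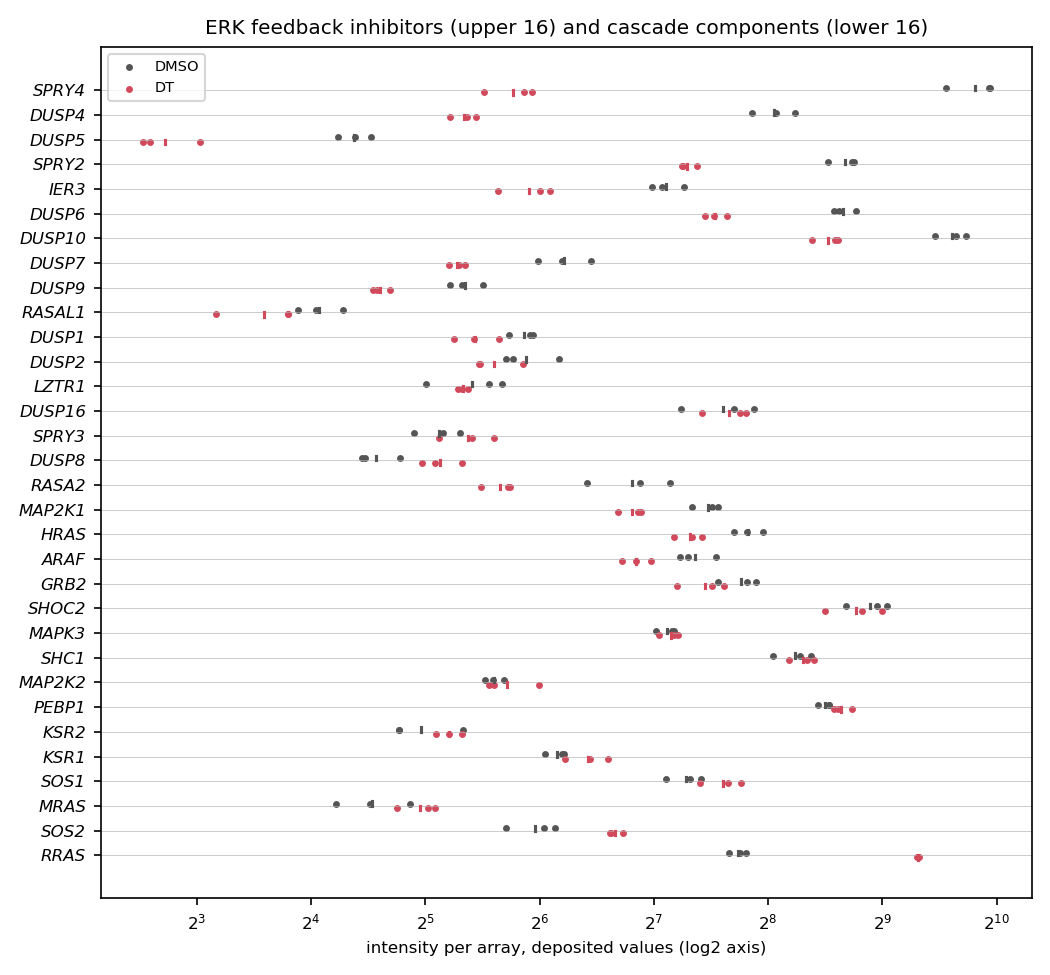
Intensity on each of the 3 DMSO and 3 DT arrays (points, log2 axis, deposited values) with the mean of the log2 values (vertical tick). The upper rows are the 16 genes listed as feedback inhibitors and the lower rows the 16 cascade components, ordered by their difference within each set. SPRY4 shows the widest gap, from a mean of 904 to 54.9, and RRAS, at the foot, lies 2.97-fold higher in DT.

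Among the AP-1 subunits JUN and FOSL2 rose and FOSL1 fell. JUN, a core AP-1 subunit that is activated by JNK, rose from 115, 129 and 101 on the DMSO arrays to 563, 483 and 521 on the DT arrays (4.57-fold, 2.19 ± 0.14, quantile 2.52, limma adjusted p = 5.4e-11). FOSL1, the FOS-related partner that ERK stabilizes and induces, fell from 244, 245 and 230.1 to 114, 104 and 101 (-1.17 ± 0.14, quantile -0.79), and its relative FOSL2 rose from 52.8, 52.1 and 44.6 to 101, 72.8 and 88.5 (0.80 ± 0.15, quantile 1.03). In none of these genes did the arms overlap. Of the other subunits, FOS was called in neither scaling (0.039 ± 0.17, quantile 0.21), FOSB was called higher in quantile-normalized values only (0.18 ± 0.16, quantile 0.41), JUNB was called in neither scaling (-0.21 ± 0.17, quantile 0.14) and JUND was called in neither scaling (-0.094 ± 0.13, quantile 0.23). Of the 25 immediate-early and ETS factors measured 4 were higher (16%) and 8 lower (32%) in both scalings, or 2 higher without DMSO replicate 3 or DT replicate 1 (median -0.32, quantile -0.21). Over all genes 4.66% were higher and 14.6% lower. The 3 PEA3-type ETS factors all fell, ETV4 from 279.9, 278 and 234 to 33.6, 26.4 and 31.9, ETV5 from 279.8, 261 and 206 to 67.8, 54.3 and 66.2 and ETV1 from 213, 199 and 171 to 94, 81.9 and 96.9. ETV4 changed 8.63-fold, ETV5 3.95-fold and ETV1 2.14-fold, and no arms overlapped. The zinc-finger factors KLF6 (-0.99 ± 0.15, quantile -0.66) and KLF2 (-0.67 ± 0.15, quantile -0.42) and the small MAF protein MAFF (-0.76 ± 0.19, quantile -0.56) fell as well. EGR1, the classical immediate-early gene, was called lower (-0.50 ± 0.17, quantile -0.38), but not without DMSO replicate 1, DMSO replicate 2, DMSO replicate 3, DT replicate 2 or DT replicate 3. The call of ATF3 as higher was lost without DMSO replicate 2, DMSO replicate 3 or DT replicate 1, and that of ETS1 without DMSO replicate 1, DMSO replicate 3, DT replicate 1 or DT replicate 3.

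Within the MYC network, in which MYC competes with MXD proteins for the partner MAX, MYC fell, MXD4 rose and MXD3 fell. MYC measured 261, 277 and 198 on the DMSO arrays and 47.8, 36 and 39.5 on the DT arrays, 5.95-fold lower. MXD4, a repressor that binds the same DNA with MAX, rose from 119, 119 and 92.4 to 229, 184 and 204 (0.91 ± 0.14, quantile 1.22). In both, the arms were far apart relative to the spread within them. MXD3, a member of the MXD family, fell instead (-0.76 ± 0.13, quantile -0.42), as did MLX, the partner of the glucose-sensing Mondo factors (-1.07 ± 0.14, quantile -0.74), while MAX itself was not called after quantile normalization (-0.37 ± 0.14, quantile -0.022). Of the 10 network genes measured 1 was higher (10%) and 3 lower (30%) in both scalings (median -0.24, quantile 0.093), against 4.66% and 14.6% of all genes.

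Growth factors and receptors were called about as often as all genes, of which 4.66% were higher and 14.6% lower in both scalings. Of the 33 ligand genes measured, 14 were at background in both arms, and 1 was higher (3.03%) and 6 lower (18.2%) in both scalings, or 3 lower without DT replicate 1 (median -0.13, quantile -0.034). PDGFD, a ligand of the PDGF receptor beta, measured 52, 41.9 and 40.6 in DMSO and 12.9, 11.9 and 13.8 in DT, which is near background (at least 3.33-fold, and at least 2.96-fold after quantile normalization). NRG3, a neuregulin that binds ERBB4, fell from 98.3, 87.7 and 62.4 to 38.4, 32.4 and 33.4 (-1.23 ± 0.18, quantile -0.91), and NRG2 fell by less (-0.57 ± 0.14, quantile -0.44). For all 3 genes no DT array reached a DMSO array. The only ligand that rose was FGF1, a ligand of all FGF receptors, from near background (at least 1.36-fold, and at least 1.37-fold after quantile normalization). Of 30 receptor tyrosine kinase genes, 7 were at background in both arms. In both scalings 2 were higher (6.67%) and 6 lower (20%), or 1 higher without DMSO replicate 2 or DT replicate 3 (median -0.11, quantile -0.07). EPHA2, an ephrin receptor, fell from 145, 145 and 147 to 67.3, 48.7 and 58.5 (-1.34 ± 0.14, quantile -0.99). Other receptors that fell were EPHB4 (-0.93 ± 0.15, quantile -0.58), EPHA3 (-0.70 ± 0.17, quantile -0.46) and KDR, a VEGF receptor (-0.95 ± 0.18, quantile -0.79), whereas FLT1, another VEGF receptor, rose (0.64 ± 0.15, quantile 0.75). AXL (-0.70 ± 0.13, quantile -0.35) and MET (-0.61 ± 0.15, quantile -0.26), receptors often followed in melanoma under treatment, were called lower, AXL not without DMSO replicate 2, DMSO replicate 3, DT replicate 1 or DT replicate 3 and MET not without DMSO replicate 1, DMSO replicate 2, DT replicate 2 or DT replicate 3. IGF1R was called in neither scaling (-0.39 ± 0.17, quantile -0.052), ERBB3 was called higher in quantile-normalized values only (0.21 ± 0.14, quantile 0.51), and EGFR, at 10.7, 8.33 and 9.59 in DMSO and 8.57, 10.5 and 10.7 in DT, was at background.

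In the PI3K-AKT-mTOR pathway, which runs beside the ERK pathway from the same receptors, the docking proteins of the GAB family moved apart. GAB1, which recruits PI3K to receptors, rose from 117, 95.4 and 78.2 to 172, 161 and 175 (0.82 ± 0.16, quantile 1.12), and GAB2 fell from 67.7, 84.4 and 50.3 to 31.2, 27.1 and 33 (-1.12 ± 0.19, quantile -0.84). EIF4EBP1, the translation repressor that mTORC1 phosphorylates, fell from 625, 617 and 548 to 243, 252 and 237 (2.44-fold, -1.29 ± 0.15, quantile -0.95). None of these arms overlapped. PHLPP1, a phosphatase of AKT (-0.87 ± 0.16, quantile -0.54), and DEPTOR, an mTOR inhibitor (at least 1.31-fold, and at least 1.28-fold after quantile normalization), fell too. Of the 17 genes of this list 2 were higher (11.8%) and 4 lower (23.5%) in both scalings, or 1 higher without DMSO replicate 3 or DT replicate 3 (median -0.30, quantile 0.011). Over all genes these shares were 4.66% and 14.6%.

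Of 11 genes listed as CDK inhibitors and pocket proteins, only CDKN2A, CDKN3, RB1, RBL1 and RBL2 were measured. CDKN1A, CDKN1B and CDKN1C were not among them. Of these 5 genes 0 were higher (0%) and 3 lower (60%) in both scalings, or 1 lower without DT replicate 3 (median -0.53, quantile -0.41). Over all genes 4.66% were higher and 14.6% lower, shares that also stand beside the other lists of this paragraph. RBL1, the p107 pocket protein, fell from 206, 219 and 173 to 80.9, 62.2 and 87.6 (-1.38 ± 0.15, quantile -0.999), and its relative RBL2, the p130 pocket protein of resting cells, was called in neither scaling (-0.17 ± 0.15, quantile 0.19). RB1 was lower in deposited values only (-0.44 ± 0.15, quantile -0.082). CDKN2A was dim in both arms (28.7, 27.7 and 23.8 in DMSO, 21.7, 18.6 and 15.5 in DT), and its call was lost without DMSO replicate 1, DMSO replicate 2 or DT replicate 3, as was that of CDKN3 without DMSO replicate 3, DT replicate 1 or DT replicate 3. Of 10 genes known as p53 targets 2 were higher (20%) and 3 lower (30%) in both scalings, or 1 higher without DT replicate 1 (median -0.14, quantile -0.037). TP53INP1, a stress-induced cofactor of p53, rose from 17.5, 20.1 and 16.8 to 64.6, 50.6 and 54.6 (3.12-fold, 1.64 ± 0.18, quantile 1.69), while the exonuclease AEN (-0.97 ± 0.14, quantile -0.63) and the metabolic regulator TIGAR (-0.71 ± 0.15, quantile -0.37) fell. The list named for the BCL2 family and caspases held 17 measured genes, among them XIAP, BIRC2 and APAF1 but no caspase. Of these genes 1 was higher (5.88%) and 2 lower (11.8%) in both scalings (median -0.20, quantile 0.044). Without DMSO replicate 2, 0 were lower, and without DMSO replicate 3 or DT replicate 1, 1 was lower. BMF, a pro-apoptotic BH3-only protein, was the gene that rose, from 48.6, 53 and 37.4 to 82.4, 60.5 and 85.6 (0.72 ± 0.17, quantile 0.92), without overlap. MCL1, which opposes apoptosis, was not called after quantile normalization (-0.47 ± 0.14, quantile -0.13).

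Most measured genes for making nucleotides fell. Of 21 measured, 0 were higher (0%) and 18 lower (85.7%) in both scalings (median -0.98, quantile -0.62). CTPS2, a second CTP synthase (0.26 ± 0.13, quantile 0.41), and SHMT1, the cytosolic serine hydroxymethyltransferase (-0.11 ± 0.14, quantile 0.23), were higher in quantile-normalized values only, and PRPS2, a phosphoribosyl pyrophosphate synthetase, was lower in deposited values only (-0.53 ± 0.16, quantile -0.17). TYMS, thymidylate synthase, fell from 1111, 1106 and 1003 on the DMSO arrays to 333, 344 and 352 on the DT arrays (3.13-fold, limma adjusted p = 1.7e-09). PPAT, which commits phosphoribosyl pyrophosphate to purines, fell from 307, 251 and 205 to 80.9, 69.3 and 103 (3.01-fold, limma adjusted p = 1.5e-07). Every DT array lay below every DMSO array in both. In the purine pathway the falls included PFAS (-1.25 ± 0.15, quantile -0.88), ADSL (-0.98 ± 0.14, quantile -0.62), ATIC (-0.89 ± 0.14, quantile -0.55), GMPS (-0.85 ± 0.14, quantile -0.51) and IMPDH2 (-0.84 ± 0.14, quantile -0.50). In the pyrimidine pathway they included UMPS (-1.01 ± 0.14, quantile -0.64), CTPS1 (-1.004 ± 0.15, quantile -0.66) and DHODH (-0.81 ± 0.15, quantile -0.47), and for deoxynucleotides both ribonucleotide reductase subunits, RRM1 (-1.31 ± 0.15, quantile -0.93) and RRM2 (-1.40 ± 0.15, quantile -1.06), and the kinase DTYMK (-1.48 ± 0.14, quantile -1.14). One-carbon enzymes that feed both pathways fell too, with SHMT2 (-1.07 ± 0.15, quantile -0.80) and MTHFD1L (-0.85 ± 0.13, quantile -0.50). Of 11 polyamine genes 0 were higher (0%) and 3 lower (27.3%) in both scalings, or 1 higher without DMSO replicate 2 (median -0.35, quantile -0.043). For both lists the shares over all genes were 4.66% higher and 14.6% lower. Both decarboxylases that limit polyamine synthesis fell, AMD1 from 534, 528 and 423 to 156, 129 and 154 (-1.75 ± 0.15, quantile -1.42) and ODC1 from 461, 486 and 386 to 236, 220.1 and 249.5 (-0.91 ± 0.15, quantile -0.59). SAT1, which acetylates polyamines for removal, fell with them (-1.34 ± 0.14, quantile -1.03). The synthases SRM (-0.52 ± 0.13, quantile -0.21) and SMS (-0.47 ± 0.13, quantile -0.11) were not called after quantile normalization.

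Promoters of falling genes were compared for the letters bound by proliferation factors, in the 250 bases before the start of each gene that RefSeq (GRCh38.p14) gave a promoter, on both strands. The 2-fold limit was set in deposited values, and the sets depend on the scaling. Over all genes 618 were called lower and 114 higher by at least 2-fold as deposited, and 254 and 200 after quantile normalization. The E2F letters TTTCCCGC stood in 5.01% of the 499 genes that fell at least 2-fold, in 1.18% of the 85 that rose at least 2-fold, and in 1.93% of all 10562 promoters. For a second form, TTTGGCGC, these shares were 2.81%, 1.18% and 0.748%. For the cAMP response element TGACGTCA they were 5.01%, 2.35% and 2.36%, for the ETS letters CCGGAAGT 7.41%, 2.35% and 5.41%, and for the AP-1 letters TGAGTCA 1.6%, 3.53% and 3.27%. The CHR element TTTGAA was about as frequent before rises as before falls, at 15.8% of falls, 15.3% of rises and 10.4% of all. For the CCAAT box the shares were 41.5%, 30.6% and 34.4%. Shares of 1.18%, 2.35% and 3.53% among the rises stand for 1, 2 and 3 promoters. The E-box CACGTG, to which MYC and MAX bind, stood in 4 of 18 nucleotide synthesis promoters (22.2%), in 6 of 14 lysosome promoters (42.9%), in 9.42% of the genes that fell at least 2-fold, in 4.71% of those that rose, and in 7.92% of all. These shares are descriptions of letters, with no test, and a match is not a bound site. The 140 bases before the gene start are printed for 3 genes that fell and hold these letters, GINS2, CDCA7 and ATIC. GINS2 is part of the replicative helicase (chr16:85688955-85689094 on the minus strand). CDCA7 is a chromatin remodelling cofactor (chr2:173354732-173354871 on the plus strand), and ATIC is an enzyme of purine synthesis (chr2:215311919-215312058 on the plus strand). Capitals mark the E2F letters, read on the other strand 31 bases before the start of GINS2 and 65 before that of CDCA7, and the E-box 46 bases before that of ATIC, whose window also overlaps an uncharacterised gene.
GINS2: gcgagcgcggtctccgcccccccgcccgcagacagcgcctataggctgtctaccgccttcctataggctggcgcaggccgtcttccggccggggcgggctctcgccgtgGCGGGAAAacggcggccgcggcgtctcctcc
CDCA7: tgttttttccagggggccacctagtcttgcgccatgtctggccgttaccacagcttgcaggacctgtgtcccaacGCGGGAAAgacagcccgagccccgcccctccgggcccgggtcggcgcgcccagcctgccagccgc
ATIC: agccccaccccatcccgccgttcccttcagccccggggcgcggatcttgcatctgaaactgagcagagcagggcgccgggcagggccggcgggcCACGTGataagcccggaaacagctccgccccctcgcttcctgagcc

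Genes for bringing proteins into mitochondria fell with the nucleotide genes. Of 17 measured, 0 were higher (0%) and 13 lower (76.5%) in both scalings (median -0.74, quantile -0.43), against 4.66% and 14.6% of all genes. TIMM50, which guides precursors to the inner membrane, fell from 304, 371 and 255 to 100.1, 99.4 and 113 (2.94-fold), and TOMM40, the pore of the outer membrane, from 299, 337 and 267 to 129, 101 and 131 (2.51-fold). The small carriers of the space between the membranes fell in the same way, with TIMM8A (-1.46 ± 0.15, quantile -1.08), TIMM9 (-1.24 ± 0.15, quantile -0.88) and TIMM10 (-1.21 ± 0.13, quantile -0.86), as did the matrix chaperones HSPD1 (-1.08 ± 0.13, quantile -0.76) and HSPA9 (-0.90 ± 0.14, quantile -0.56). Of 6 genes of mitochondrial biogenesis 0 were higher (0%) and 3 lower (50%) in both scalings (median -0.64, quantile -0.37). These were the DNA helicase TWNK (-1.03 ± 0.16, quantile -0.68), the RNA polymerase POLRMT (-0.88 ± 0.16, quantile -0.52) and the ribosome assembly factor MTERF3 (-0.78 ± 0.15, quantile -0.44). Of 8 glycolysis genes 0 were higher (0%) and 4 lower (50%) in both scalings (median -0.57, quantile -0.21). HK2, the hexokinase that many tumours induce, fell from 186, 190.2 and 147 to 63.4, 55.1 and 56.5 (-1.57 ± 0.17, quantile -1.20), and HK1, the constitutive hexokinase, was called in neither scaling (-0.22 ± 0.14, quantile 0.11). LDHA, the lactate dehydrogenase subunit that MYC induces, fell (-0.99 ± 0.14, quantile -0.62), and LDHB was not called after quantile normalization (-0.57 ± 0.15, quantile -0.21).

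Fatty acid synthesis genes fell in part, and most sterol gene calls were lost after quantile normalization. Of 15 fatty acid synthesis genes 0 were higher (0%) and 6 lower (40%) in both scalings (median -0.52, quantile -0.18). The shares over all genes, 4.66% and 14.6%, stand beside every list of this paragraph. FASN, fatty acid synthase, fell from 521, 561 and 413 on the DMSO arrays to 169, 135 and 174 on the DT arrays (3.12-fold, -1.64 ± 0.16, quantile -1.31). It was followed by the desaturases FADS1 (-1.02 ± 0.16, quantile -0.64) and SCD (-0.82 ± 0.15, quantile -0.47), by the acetyl-CoA carboxylase ACACA (-0.71 ± 0.16, quantile -0.37) and by the elongase ELOVL5 (-0.64 ± 0.15, quantile -0.29). Of 19 sterol genes 0 were higher (0%) and 2 lower (10.5%) in both scalings, or 1 lower without DMSO replicate 2, DMSO replicate 3 or DT replicate 1 (median -0.38, quantile -0.035). In deposited values alone 10 sterol genes were lower (52.6%, against 23.1% of all genes). EBP, a sterol isomerase, fell (-0.9995 ± 0.13, quantile -0.66). Of 10 genes of fatty acid oxidation 1 was higher (10%) and 1 lower (10%) in both scalings, or 2 higher without DT replicate 2 (median -0.10, quantile 0.14). The fatty acid transporter CD36 rose from background (at least 1.11-fold, and at least 1.11-fold after quantile normalization), and HADH, a dehydrogenase of beta oxidation, fell (-0.85 ± 0.16, quantile -0.49). Of 11 genes of amino acid supply and ATF4 targets 0 were higher (0%) and 2 lower (18.2%) in both scalings (median -0.39, quantile -0.058). The serine pathway enzyme PSAT1 (-0.79 ± 0.16, quantile -0.42) and the leucine sensor SESN2 (-0.67 ± 0.14, quantile -0.50) fell, and ATF4 itself was not called after quantile normalization (-0.41 ± 0.13, quantile -0.058).

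Lysosome and autophagy genes depended on the scaling as sets, and a few members rose under both. Of 23 lysosome genes 1 was higher (4.35%) and 2 lower (8.7%) in both scalings, or 2 higher without DT replicate 2 (median -0.025, quantile 0.29). In quantile-normalized values alone 11 were higher, against 14.6% of all genes. RRAGD, a GTPase that brings mTORC1 to the lysosome, fell from 509, 419 and 384 to 189, 162 and 188 (-1.28 ± 0.14, quantile -0.94), and the calcium channel MCOLN1 fell too (-0.83 ± 0.17, quantile -0.46). The cathepsin CTSO rose (0.99 ± 0.15, quantile 1.03). The letters TCACGTGA, the CLEAR element of lysosome genes, which contains the E-box, stood in 3 of 14 lysosome promoters (21.4%) and in 1.35% of all. Of 24 autophagy genes 3 were higher (12.5%) and 2 lower (8.33%) in both scalings, or 1 lower without DMSO replicate 2 or DMSO replicate 3 (median 0.034, quantile 0.30). Autophagy genes higher in quantile-normalized values alone numbered 12, against 14.6% of all genes, and in deposited values alone 3, against 4.72%. In both scalings 4.66% of all genes were higher and 14.6% lower. MAP1LC3C, an LC3 paralog, rose from 24, 22 and 21.2 to 155, 112 and 137 (5.96-fold), TP53INP2, which helps autophagosomes form, from 89.6, 87.9 and 79 to 199, 191 and 195 (1.19 ± 0.13, quantile 1.48), and MAP1LC3A from near background (at least 1.52-fold, and at least 1.53-fold after quantile normalization). ATG16L1, part of the complex that attaches LC3 to membranes, fell (-0.76 ± 0.16, quantile -0.44). Of 10 genes of the ER stress response 0 were higher (0%) and 0 lower (0%) in both scalings (median -0.27, quantile 0.029). By limma, XBP1 (-0.34 ± 0.14, quantile -0.024) had an adjusted p of 0.081 in deposited and 0.9 in quantile-normalized values. Of 6 cytosolic chaperone genes 0 were higher (0%) and 3 lower (50%) in both scalings, or 1 lower without DMSO replicate 2, DMSO replicate 3, DT replicate 1 or DT replicate 2 (median -0.49, quantile -0.21). HSPH1, a member of the HSP110 family, fell (-1.02 ± 0.15, quantile -0.69).

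**Figure D3:**
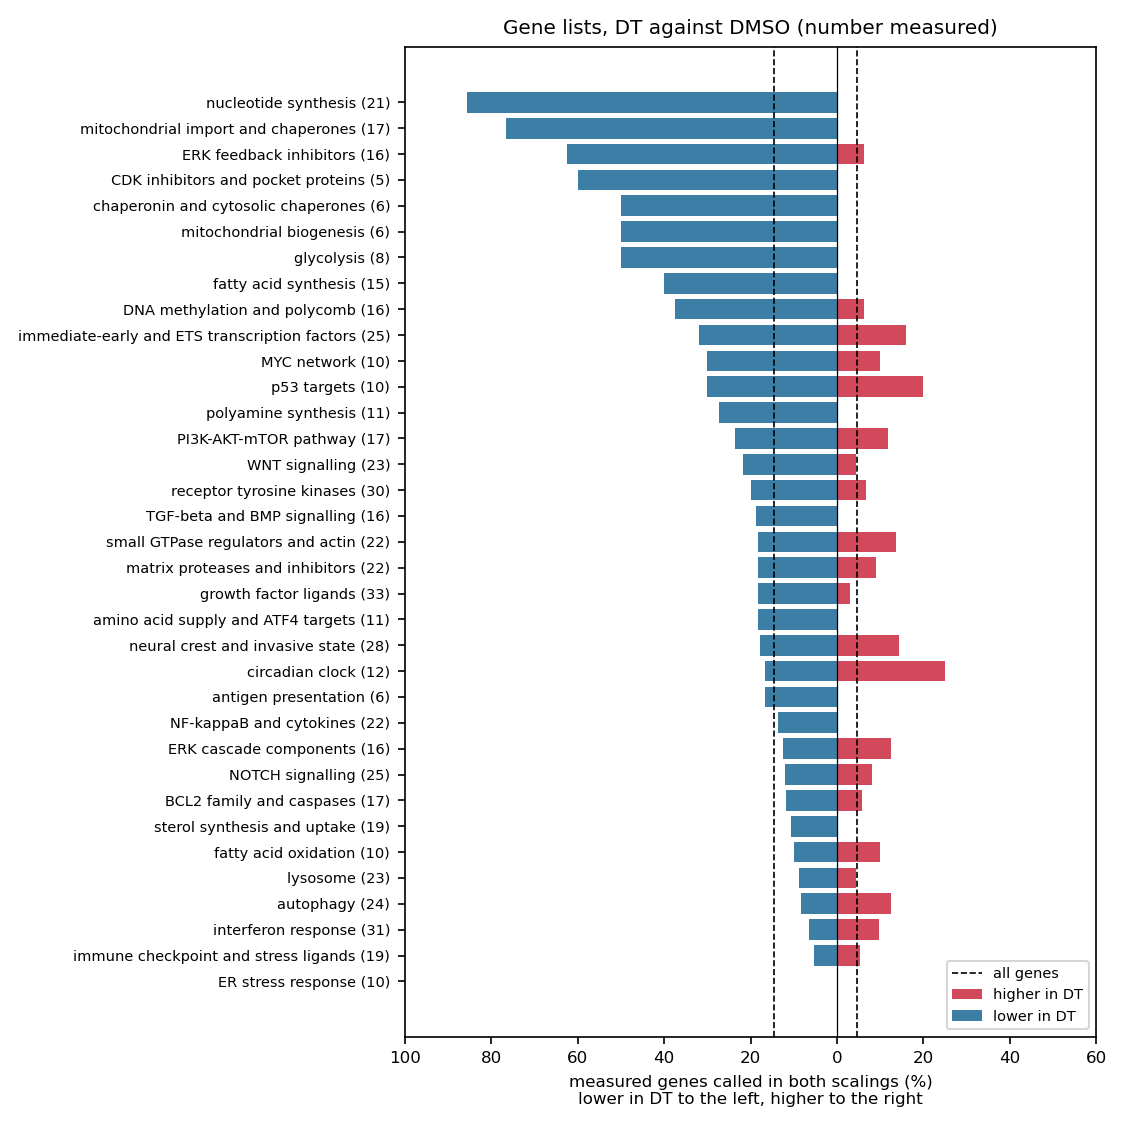
Share of each list's measured genes called by limma in both scalings, lower in DT to the left and higher to the right, with the number measured in brackets and dashed lines at the shares over all 14582 genes (14.6% and 4.66%). Nucleotide synthesis (18 of 21 lower) and mitochondrial import (13 of 17 lower) stand at the top.

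Markers of melanocyte state did not move as a block. Of 11 melanocyte markers 1 was higher (9.09%) and 4 lower (36.4%) in both scalings, or 3 lower whichever DMSO or DT array was left out (median -0.45, quantile -0.14). Over all genes 4.66% were higher and 14.6% lower. MITF, the regulator of the lineage, measured 574, 537 and 454 in DMSO and 126, 116 and 124 in DT, while the pigment enzyme TYRP1 rose from 19.96, 20.3 and 19.9 to 37.2, 33.5 and 35 (0.81 ± 0.14, quantile 0.89). SOX10, the neural crest factor upstream of MITF, was called higher in quantile-normalized values only (0.0082 ± 0.16, quantile 0.36). Of 28 genes of the neural crest and of an invasive melanoma state 4 were higher (14.3%) and 5 lower (17.9%) in both scalings (median -0.08, quantile 0.043). FOXD3, a forkhead factor of the neural crest, rose from 35.3, 42.9 and 38.7 to 155, 127 and 128 (3.5-fold), without overlap. Among factors of the epithelial-mesenchymal switch ZEB2 rose from 85.4, 84.9 and 73.9 to 206, 169.8 and 209.6 (1.26 ± 0.15, quantile 1.54) while ZEB1 (-0.71 ± 0.16, quantile -0.62) and TWIST1 (-0.75 ± 0.16, quantile -0.51) fell, and SNAI1 (-0.16 ± 0.18, quantile -0.094) and SNAI2 (-0.015 ± 0.14, quantile 0.33) were called in neither scaling. The matrix protein THBS1 (0.92 ± 0.14, quantile 1.28) and the annexin ANXA1 (0.55 ± 0.13, quantile 0.87) rose, and the hyaluronan receptor CD44 (-0.78 ± 0.15, quantile -0.42) and the factor SOX5 (-0.78 ± 0.17, quantile -0.42) fell.

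The lists of this paragraph were called at shares to be read against 4.66% higher and 14.6% lower over all genes, and no difference from these was tested. Of 23 WNT pathway genes 1 was higher (4.35%) and 5 lower (21.7%) in both scalings, or 0 higher without DMSO replicate 1, DMSO replicate 3 or DT replicate 3 and 3 lower without DMSO replicate 2 or DT replicate 3 (median -0.13, quantile -0.063). LEF1, a transcription factor at the end of the pathway, fell from 996, 927 and 854 to 327, 265 and 326 (3.03-fold), and the receptors FZD7 (-1.12 ± 0.16, quantile -0.79) and LRP5 (-0.87 ± 0.18, quantile -0.58) fell. Of 25 NOTCH pathway genes 2 were higher (8%) and 3 lower (12%) in both scalings, or 1 lower without DMSO replicate 2 or DT replicate 3 (median -0.18, quantile -0.012). The ligand JAG1 rose from 208, 226 and 182 to 330.0, 282 and 359.8 (0.66 ± 0.15, quantile 1.02), as did the coactivator MAML2 (0.89 ± 0.15, quantile 1.17), and the target HEY2 fell from 215, 227 and 182 to 92.8, 88.3 and 96.9 (-1.16 ± 0.17, quantile -0.77). In these genes every array of one arm lay on the same side of every array of the other. Of 16 TGF-beta and BMP genes 0 were higher (0%) and 3 lower (18.8%) in both scalings (median -0.11, quantile 0.085). The genes that fell were the pseudoreceptor BAMBI (-0.90 ± 0.14, quantile -0.57), the inhibitory SMAD7 (-0.86 ± 0.15, quantile -0.54) and the corepressor SKI (-0.69 ± 0.15, quantile -0.41), while SMAD6, another inhibitory SMAD (0.049 ± 0.15, quantile 0.32), and SKIL, a relative of SKI (-0.13 ± 0.17, quantile 0.21), were called in neither scaling. Of 22 matrix proteases and inhibitors 2 were higher (9.09%) and 4 lower (18.2%) in both scalings, or 1 higher without DMSO replicate 1 (median -0.034, quantile 0.13). Of the membrane-bound matrix metalloproteinases, MMP15 rose from 336, 355 and 335 to 816, 655 and 875 (1.18 ± 0.15, quantile 1.51) and MMP16 fell from 359.9, 332 and 289.6 to 142, 117 and 136 (-1.31 ± 0.14, quantile -0.96). The inhibitor TIMP3 (-1.14 ± 0.14, quantile -0.75) and the proteases ADAM19 (-1.25 ± 0.16, quantile -0.92) and ADAM12 (-0.77 ± 0.15, quantile -0.59) fell. Of 22 regulators of small GTPases and actin 3 were higher (13.6%) and 4 lower (18.2%) in both scalings (median -0.24, quantile 0.09). RHOB, a GTPase of endosomes, rose from 266, 238 and 219.7 to 459, 419 and 491 (0.92 ± 0.14, quantile 1.30), and the formins DIAPH1 (-0.84 ± 0.16, quantile -0.49) and DIAPH3 (-1.54 ± 0.15, quantile -1.21) fell.

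Calls in the immune-related lists are set beside the 4.66% higher and 14.6% lower of all genes. Of 31 interferon response genes 3 were higher (9.68%) and 2 lower (6.45%) in both scalings (median -0.034, quantile 0.043). IRF9, the DNA-binding part of the ISGF3 complex, rose from 56.1, 63.2 and 51.1 to 114, 96.2 and 88.6 (0.81 ± 0.14, quantile 1.06), as did SAMD9L (0.84 ± 0.14, quantile 1.02), while the ISG15 ligase HERC5 (-1.03 ± 0.16, quantile -0.68) and the ubiquitin ligase DTX3L (-0.94 ± 0.16, quantile -0.60) fell. Of 22 NF-kappaB and cytokine genes 0 were higher (0%) and 3 lower (13.6%) in both scalings (median -0.14, quantile -0.044). ICAM1, an adhesion molecule for leukocytes, fell from 268, 276 and 237 to 103, 86.6 and 96.1 (2.74-fold), and the cytokine LIF fell to background (at least 1.66-fold, and at least 1.61-fold after quantile normalization). Of 6 antigen presentation genes 0 were higher (0%) and 1 lower (16.7%) in both scalings, or 0 lower without DMSO replicate 1, DMSO replicate 2, DT replicate 1, DT replicate 2 or DT replicate 3 (median -0.16, quantile 0.17). B2M, the shared chain of class I molecules, was called in neither scaling (-0.26 ± 0.14, quantile 0.086). Of 19 checkpoint and stress ligand genes 1 was higher (5.26%) and 1 lower (5.26%) in both scalings, or 0 higher without DMSO replicate 1, DMSO replicate 2, DMSO replicate 3, DT replicate 1 or DT replicate 3 and 2 lower without DMSO replicate 2 (median -0.062, quantile 0.048). PVR, a ligand of TIGIT, fell (-0.74 ± 0.14, quantile -0.39), and CD274, which encodes PD-L1, was near background (16.1, 15 and 13.4 in DMSO and 11.8, 10.6 and 10.8 in DT).

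Some genes that copy DNA methylation and polycomb marks through replication fell. Of 16 genes of this list 1 was higher (6.25%) and 6 lower (37.5%) in both scalings (median -0.42, quantile -0.19). UHRF1, which brings the methyltransferase to newly copied DNA, fell from 303, 319.6 and 245 to 99.2, 85.7 and 109 (2.95-fold), and the methyltransferase DNMT1 from 378, 388 and 308 to 161, 135 and 160.0 (-1.23 ± 0.15, quantile -0.89). Of the genes of polycomb repressive complex 2, the accessory subunit PHF19 (-1.64 ± 0.14, quantile -1.27), the catalytic subunit EZH2 (-1.05 ± 0.13, quantile -0.72) and the histone chaperone RBBP4 (-0.64 ± 0.15, quantile -0.31) fell, while SUZ12 was called lower in deposited values only (-0.62 ± 0.15, quantile -0.25). TET2, which oxidizes methylated cytosine, rose (0.75 ± 0.16, quantile 1.02). Of 12 circadian clock genes 3 were higher (25%) and 2 lower (16.7%) in both scalings, or 1 higher without DMSO replicate 1, DT replicate 1 or DT replicate 3 and 1 lower without DMSO replicate 1 or DT replicate 2 (median -0.22, quantile -0.055). For both lists the shares over all genes were 4.66% higher and 14.6% lower. NPAS2, a paralog of CLOCK, fell from 186, 207 and 130.1 to 51.5, 50.5 and 53.3 (3.31-fold).

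The largest rise among genes with an established name belonged to ANGPTL7, an angiopoietin-like secreted protein known from the eye. It measured 114, 109.7 and 96.3 on the DMSO arrays and 2653, 2404 and 2747 on the DT arrays. LCTL, a member of the klotho family, rose from 58, 66.7 and 59.3 to 456, 399.7 and 445 (7.07-fold). The DT arrays of both genes were several times the brightest DMSO array. Transcription factors and signalling genes among the 15 largest rises were GLIS3 (2.07 ± 0.15, quantile 2.19), a Krüppel-like zinc finger factor, PLK2 (1.74 ± 0.16, quantile 1.87), a polo-like kinase of stressed cells, and ARHGEF6 (1.98 ± 0.18, quantile 2.10), an exchange factor for RAC1 and CDC42. Components of ubiquitin ligases, KLHL3 (1.71 ± 0.14, quantile 1.83) and PDZRN3 (1.78 ± 0.15, quantile 2.13), rose with the thioredoxin inhibitor TXNIP (2.06 ± 0.18, quantile 2.32). The others were the secreted OLFML2A (1.84 ± 0.13, quantile 2.02), the formin FHDC1 (1.92 ± 0.16, quantile 2.01), the scaffold FRMPD4 (1.70 ± 0.15, quantile 1.75) and ANXA2 (1.78 ± 0.13, quantile 2.12), an annexin that binds membranes with calcium.

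The largest fall belonged to UCN2, the gene of the peptide urocortin 2. UCN2 measured 1607, 1917 and 1341 in DMSO and 88.7, 73 and 83.7 in DT, 19.7-fold lower (limma adjusted p = 2.6e-14). NPPC, the precursor of C-type natriuretic peptide, measured 113, 123 and 89.2 and 12.7, 13.5 and 17. In both genes of secreted peptides the arms were separated by more than the whole DT range. ANKS1A, an adaptor of ephrin receptors, went from 931, 927 and 775 to 135, 118 and 136, and GPR3, a receptor that raises cyclic AMP without a ligand, from 147, 159 and 127 to 25.6, 27.3 and 30.6 (-2.37 ± 0.17, quantile -2.01). The remaining genes of the 15 largest falls outside the lists above were the zinc finger gene ZNF114 (-2.66 ± 0.16, quantile -2.25), the retinaldehyde-binding RLBP1 (-2.49 ± 0.18, quantile -2.14), the kinetochore protein CENPK (-2.17 ± 0.17, quantile -1.79), CDCA7 (-2.24 ± 0.14, quantile -1.90) and the replication and repair genes GINS2 (-2.32 ± 0.15, quantile -1.93), MCM10 (-2.19 ± 0.16, quantile -1.80) and XRCC2 (-2.11 ± 0.16, quantile -1.73). The AP-1 letters TGAGTCA stood before the largest fall, UCN2 (chr3:48563782-48563921 on the minus strand), and before a large rise, ANXA2 (chr15:60397987-60398126 on the minus strand), on the gene's own strand. The 140 bases before each start are printed with these letters in capitals, 102 and 127 bases upstream, and in ANXA2 with the TATA letters TATAAA also in capitals, which 8.17% of all promoters hold.
UCN2: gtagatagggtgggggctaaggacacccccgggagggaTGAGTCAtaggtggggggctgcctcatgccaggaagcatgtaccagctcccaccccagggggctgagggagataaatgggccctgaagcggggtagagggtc
ANXA2: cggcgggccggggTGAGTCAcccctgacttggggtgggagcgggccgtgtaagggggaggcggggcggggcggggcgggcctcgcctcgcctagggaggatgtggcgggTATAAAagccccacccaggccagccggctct

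**Figure D4:**
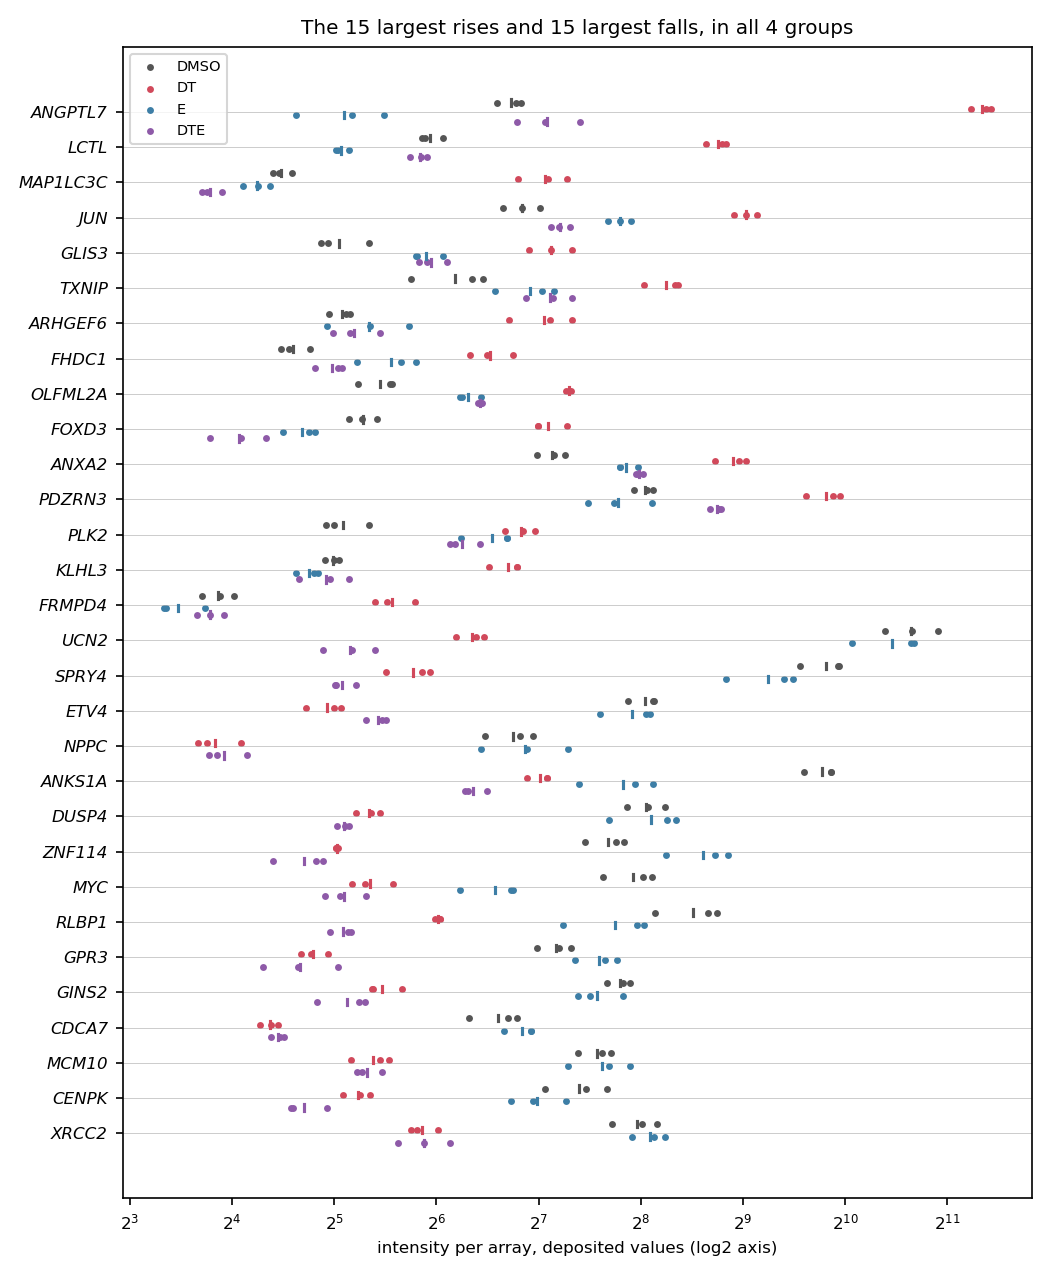
Intensity on each of the 12 arrays (points, log2 axis, deposited values) with the mean of the log2 values (vertical tick), by treatment group, for the 15 largest rises (upper rows) and the 15 largest falls (lower rows) of DT against DMSO. No DT array overlaps a DMSO array in these rows, by the rule that chose them, and the DTE arrays of the rises lie below the DT arrays. The DTE arrays were dimmer in general, with a geometric mean of the brighter genes of 61.2, 66.7 and 68.5 against 108, 94.8 and 107 in DT.

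Probe sets for miRNA genes report RNA from the gene's locus, and the mature miRNAs were not measured. Of 1018 such genes, 23 were higher and 41 lower in both scalings (2.26% and 4.03%), and of 1361 long non-coding RNA genes 91 and 75 (6.69% and 5.51%), against 4.63% and 16.9% of 11720 protein-coding genes. At background in both arms were 60.1% of the miRNA genes, 44% of the long non-coding and 18.3% of the coding genes. The miRNAs described here were chosen after their values were seen, as known regulators of proliferation and inflammation. Their mature sequences from RefSeq (GRCh38.p14), on the 5′ arm, are printed 5′ to 3′ with the seed, bases 2 to 8, in capitals.
hsa-miR-21-5p: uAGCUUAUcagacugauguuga
hsa-miR-424-5p: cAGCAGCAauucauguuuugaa
hsa-miR-503-5p: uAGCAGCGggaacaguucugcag
hsa-miR-146a-5p: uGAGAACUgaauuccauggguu

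The hairpin precursors of miR-424 (chrX:134546614-134546711) and miR-503 (chrX:134546328-134546398), which count among the relatives of miR-16, lie next to each other on the minus strand of chromosome X. MIR424 measured 47.4, 46 and 38.5 on the DMSO arrays and 115, 111 and 90.4 on the DT arrays (1.26 ± 0.14, quantile 1.45), and MIR503 measured 69.4, 64.6 and 46 and 145, 139 and 154 (1.30 ± 0.16, quantile 1.54). Neither gene's arms overlapped. MIR21 (hairpin at chr17:59841266-59841337, plus strand), a miRNA abundant in many tumours, rose from 112, 106 and 82 to 237, 189 and 292 (1.25 ± 0.17, quantile 1.55). MIR146A (hairpin at chr5:160485352-160485450, plus strand), which restrains NF-kappaB signalling, fell from 248, 281 and 207 to 82.6, 74.3 and 79.5 (-1.63 ± 0.16, quantile -1.24).

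The same agents were also compared in the presence of entinostat, as DTE against E, whose group means come from the other 6 arrays. The estimate of spread, the quantile normalization and the choice of probe sets drew on all 12 arrays. With entinostat the geometric mean of the brighter genes was 124, 145 and 161 on the E arrays and 61.2, 66.7 and 68.5 on the DTE arrays. In deposited values 36 genes (0.247%) were higher and 11453 (78.5%) lower, so quantile values are given first. After quantile normalization 1362 genes (9.34%) were higher and 1569 (10.8%) lower in DTE than in E. Of the 2135 genes higher in DT than in DMSO, 930 (43.6%) were higher again, and of the 2188 lower genes 1141 (52.1%) were lower again. The reverse direction was called for 19 and 11 genes. In deposited values 18 of 688 higher genes were higher again, 446 were lower, and 3334 of 3368 lower genes were lower again. All 15 largest falls were lower with entinostat too, in both scalings, and 13 of the 15 largest rises were higher after quantile normalization, but only 3 in deposited values, where 4 were lower. The quantile difference DTE minus E was -4.33 ± 0.17 for UCN2, -3.16 ± 0.13 for SPRY4 and -2.98 ± 0.14 for ZNF114, and 3.11 ± 0.15 for ANGPTL7, 1.85 ± 0.12 for LCTL and 2.06 ± 0.091 for PDZRN3. It was 0.084 ± 0.091 for MAP1LC3C and 0.048 ± 0.18 for FOXD3, the rises not called with entinostat, and 0.58 ± 0.13 for JUN. On single arrays MAP1LC3C measured 17.3, 19.1 and 20.7 in E and 13, 14.9 and 13.5 in DTE, and JUN 239, 223 and 205 and 147, 159 and 139 in deposited values. Every E array was brighter for JUN than every DMSO array.

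Whether the effect differed with entinostat was tested as the interaction, the difference DTE minus E less the difference DT minus DMSO. It was called for 599 genes (4.11%) after quantile normalization, with 1.91% higher and 2.19% lower, and for 9147 (62.7%) in deposited values, and for 391 in quantile-normalized values without DMSO replicate 2. Because the 30 genes were chosen for a large difference between DT and DMSO, which enters the interaction, their interaction values are described and support nothing further. In quantile-normalized values the interaction was -2.56 ± 0.13 for MAP1LC3C, -1.94 ± 0.19 for JUN and -1.91 ± 0.26 for FOXD3, and 2.12 ± 0.13 for ANKS1A and 1.76 ± 0.15 for MYC. MYC was lower in E than in DMSO, at 75, 106 and 108, and measured 30.1, 33.3 and 39.8 in DTE. ANKS1A measured 169, 247 and 278 in E and 77.7, 79.2 and 90.3 in DTE. TYMS and TIMM50 were lower with entinostat as well, by quantile differences of -0.95 ± 0.10 and -0.54 ± 0.088.

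**Figure D5:**
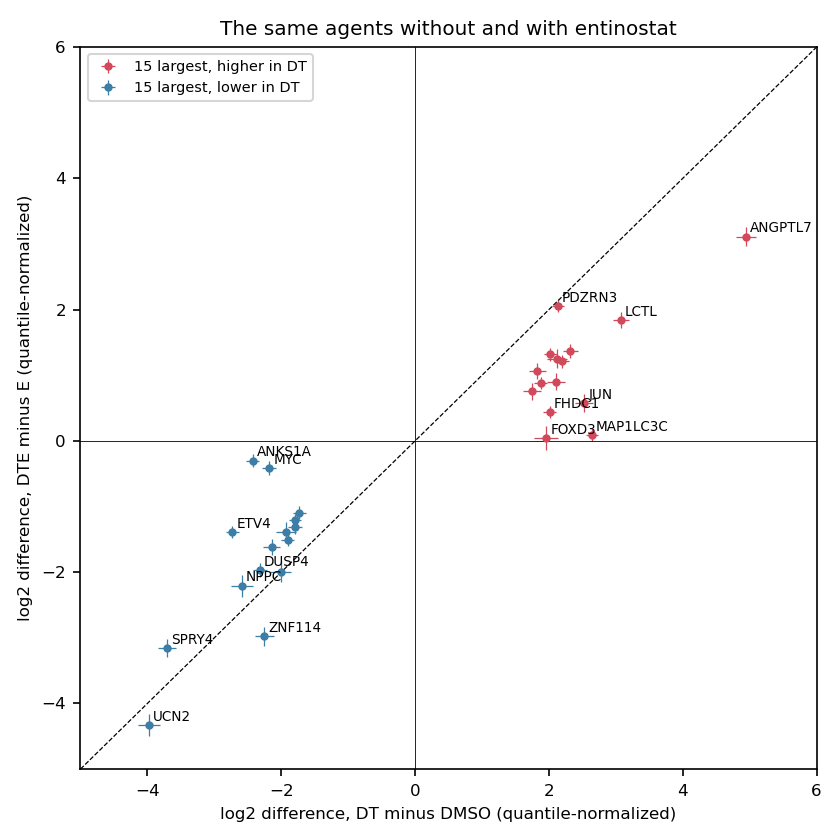
Quantile-normalized log2 difference DTE minus E (vertical axis) against DT minus DMSO (horizontal axis) of the 15 largest rises and 15 largest falls, with the standard error of the fit as bars and equality as a dashed line, selected genes being labelled. UCN2 and PDZRN3 lie near the line, whereas MAP1LC3C, FOXD3, ANKS1A and MYC lie near 0 on the vertical axis.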

How the data were processed

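The data are 12 Affymetrix arrays of SK-MEL-2 RNA, grouped by the sample titles into 4 treatments of 3 arrays. The values used are linear intensities, 1 for each probe set and array, as the authors deposited them. The submitters' processing notes name RMA and Transcriptome Analysis Console without versions. RMA usually yields log2 values with all arrays on a shared distribution, whereas these are linear and the arrays differ in level. How they came to this form, and whether the spike-ins were used, is not stated in the labels or notes used here. The number of arrays limits the precision.

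For each gene log2 of the deposited intensities was tested, without a pseudocount or filter. The platform table and RefSeq symbols gave 14750 of 29398 probe sets (50.2%) a single gene, and the other 14648 stayed unnamed. For the 156 genes with more than 1 probe set, the probe set brightest on average over the 12 arrays was kept, which gave 14582 genes. Paralogs and miRNA family members can share probes, which was not tested. limma 3.58.1 (R 4.3.3, lmFit and eBayes) estimated 1 mean for each group from all 12 arrays, with p-values adjusted by Benjamini-Hochberg over all genes, first in deposited and then in quantile-normalized values. A gene was taken to be at background in a group whose mean lay no higher than a level set at the 95th percentile among the 25% of genes that were dimmest, and this level is the floor of each at-least fold.

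The comparison, the 35 pathway lists and 5 marker lists, and the rule for named genes were chosen with earlier results of these data known. The rule took the 15 largest rises and falls called in both scalings, with the brighter arm above the median gene, arms that did not overlap and an established coding name. In each list it took as many as 6 members by smallest adjusted p, and members a reader would look for. Promoter and miRNA sequences are RefSeq's (GRCh38.p14), and 10562 genes matched a promoter by symbol. Alternatives were other scalings, a pseudocount, filters on dim genes, the mean of probe sets, array weights, another variance model, a fit of only the groups compared, a replicate block and leaving out each array.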

Additional observations from a re-analysis of the deposited data

Results flagged for a closer look

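Among the 30 genes with the largest differences between DT and DMSO, the effect of dabrafenib with trametinib differed with entinostat, by limma's interaction term, adjusted in both scalings, for 14 rises and 3 falls. The interaction is the log2 difference DTE minus E less the difference DT minus DMSO, in deposited values. It was negative for the rises, at -2.62 for ANGPTL7, -2.05 for LCTL, -3.03 for MAP1LC3C, -2.77 for JUN, -2.02 for GLIS3, -1.86 for TXNIP, -2.12 for ARHGEF6, -2.51 for FHDC1 and -1.72 for OLFML2A. It was -2.43 for FOXD3, -1.65 for ANXA2, -2.03 for PLK2, -1.55 for KLHL3 and -1.39 for FRMPD4. It was positive for falls, at 0.62 for ETV4, 1.30 for ANKS1A and 1.10 for MYC. In deposited values 9117 of 14582 genes (62.5%) had a negative interaction that was called, and the genes were chosen on a difference that enters the interaction.

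Probe sets not named here, which stayed out of the comparison, held calls as well. Of 14648, 617 (4.21%) were higher and 1969 (13.4%) lower in DT than in DMSO in deposited values, against 4.72% and 23.1% of the named genes.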

How the results depend on the processing

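Counts depended most on how the arrays were scaled. In deposited values 688 genes were higher and 3368 lower in DT, 3352 were called in the same direction in DTE against E, and 9147 had an interaction with entinostat. After quantile normalization these counts were 2135, 2188, 2071 and 599. With each array centred on its median 1361 genes were higher and 2273 had an interaction. With centring on the genes brighter than the median gene 4294 were higher, 1954 lower and 3016 had an interaction. The cause was not tested. With each array left out in turn, the deposited counts ranged over 477 to 683, 2427 to 4170, 2422 to 4145 and 7714 to 10207, and the quantile counts over 1767 to 1930, 1838 to 1978, 1646 to 1960 and 391 to 521. Same-numbered DT and DMSO arrays deviated from their group means with correlations of -0.168 to 0.0815, and not every array correlated best with its own number, so the titles' numbers were not taken to pair them. The fit with a replicate block, that is, with the replicate number as a term, gave 633 higher and 3116 lower genes, 3101 called in the same direction with entinostat and 8738 with an interaction, and the replicate block with quantile normalization gave 2081, 2145, 2020 and 554. The replicate block with quantile normalization and the left-out arrays after it were chosen after seeing the data. The pseudocount, both filters on dim genes, the mean of probe sets, the other variance model and array weights left all 4 counts within 1.5 times, as did the fit of only the groups compared for the counts it gives, which leave out the interaction.

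The 30 genes with the largest differences kept their direction and call in all 718 values over 24 settings. They were chosen from the same arrays for large differences called in both scalings and arms that did not overlap, so this adds no support. Over all genes named in the comparison and marker checks, 5102 of 5416 values kept their call and its direction or stayed uncalled, 207 kept the direction and lost the call, and 12 changed sign with a call before or after, while the others gained a call. JUND, not called at -0.094, was 0.22 with centring on those brighter genes, and 0.29 and 0.28 after quantile normalization without DMSO replicate 3 and without DT replicate 1, and its lowest value with an array left out was -0.14 without DT replicate 3. RB1 turned from -0.44 to 0.00050 and 0.00040 after quantile normalization without DMSO replicate 1 and without DT replicate 2, and its lowest was -0.56 without DMSO replicate 3. CD68, not called at -0.10, was 0.27 after quantile normalization and 0.27 with the replicate block there, and ranged from -0.18 to 0.30 over the arrays left out. SHMT1, not called at -0.11, was 0.23 after quantile normalization and ranged from -0.21 to 0.27 over the arrays left out. CD2, at background in both arms, was 0.31 with centring on the brighter genes. At background in both arms were 60.1% of miRNA genes, for which no fold can be given.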

Other observations

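The direction of calls went with the brightness of the genes. Among the dimmest 25% of genes 2.19% were higher and 1.76% lower in DT in both scalings, and 93.8% were at background in both arms. In the next 25% by brightness, 5.6% were higher and 8.81% lower, in the third group 6.17% and 21.2%, and in the brightest 4.66% and 26.6%. The median difference in deposited values was 0.004, -0.085, -0.26 and -0.33 in the same order, and after quantile normalization it was -0.004, -0.011, 0.0074 and 0.0038.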
